A study of Mus musculus with 8 samples.

Results

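The thick ascending limb of the loop of Henle reabsorbs salt without water, and 6 mouse genes of that segment were followed here across 8 kidney RNA-seq libraries. They were chosen by name, as Umod, Slc12a1, Kcnj1, Bsnd, Ptger3 and Casr, and all 6 were found among the 54965 genes of the expression table. In wild-type kidneys 3 days after ischemia-reperfusion (I/R), 5 of the 6 genes fell, as did 20.1% of all tested genes. After the same injury in knockout kidneys, Kcnj1 and Bsnd were higher than in injured wild-type kidneys, as were 2.79% of all tested genes. The response to I/R itself was not called different between genotypes for any of the 6. Without I/R the genotypes showed no called difference in any of the 6, where only 1 of 13304 tested genes was called.

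The libraries form 4 groups of 2: wild type (WT) and knockout (UtxPax2 Cre), each uninjured or sampled 3 days after I/R. In I/R the blood supply of the kidney is clamped and released, which injures the tubules. The knockout targets Utx (symbol Kdm6a), a histone demethylase gene on the X chromosome, with a Cre recombinase under Pax2, a gene of the lineages that form the nephron and the collecting ducts. Whole kidney was sampled, so cells outside that lineage and their intact Utx are included. The labels do not say whether the libraries without I/R had a sham operation, nor the age or sex of the mice, and they tie no library to an animal. P-values here therefore cover the spread between samples alone, which may be technical.

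Salt enters the cells of the thick ascending limb from the tubular fluid through the sodium-potassium-chloride cotransporter NKCC2, the product of Slc12a1 and the target of loop diuretics. Potassium returns to the lumen through the channel ROMK, encoded by Kcnj1, and chloride leaves on the blood side through channels that need the subunit barttin, encoded by Bsnd. Loss of SLC12A1, KCNJ1 or BSND causes forms of Bartter syndrome, a salt-wasting disease, in humans. The calcium-sensing receptor, encoded by Casr, and the prostaglandin E2 receptor EP3, encoded by Ptger3, restrain this transport. Umod encodes uromodulin, the most abundant protein of normal urine, which the segment secretes. Kcnj1 is also expressed in the distal convoluted tubule and collecting duct, and Bsnd in the thin limb and in intercalated cells.

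Each library held between 16780542 and 18497835 reads in genes. The 6 genes were covered by at least 473 reads in every library, from 473 to 934 for Casr up to 37666 to 63051 for Umod. The targeted gene, Kdm6a, stood at 2.57 and 2.94 FPKM (fragments per kilobase of gene, scaled to library size) in wild type, 1.99 and 1.91 in knockout, 3.00 and 2.97 in wild type after I/R and 1.59 and 1.83 in knockout after I/R. Both knockout libraries lay below both wild-type libraries in either treatment. Which exons were deleted is not stated in the labels, and reads from the others remain in these values. Havcr1, the gene of the tubular injury marker KIM-1, was 0.911 ± 0.230 FPKM before and 223 ± 26.3 FPKM after I/R in wild type (mean ± SD, n = 2). The knockout had 1.2 ± 0.0863 FPKM and 89.9 ± 0.397 FPKM.

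RefSeq start-site windows of 300 bases (250 before and 50 after the start, build GRCm38.p6) were available for 5 of the 6 genes, Bsnd being the exception. The windows of 3 genes that fell with I/R in wild type are printed: Slc12a1 and Kcnj1, with the largest decreases of the 6, and Ptger3, whose window is rich in CpG. The windows lie at chr2:125152350-125152649 on the plus strand, chr9:32393735-32394034 on the plus strand and chr3:157566626-157566925 on the plus strand. Capitals mark matches to any of 7 motifs searched on both strands.
Slc12a1: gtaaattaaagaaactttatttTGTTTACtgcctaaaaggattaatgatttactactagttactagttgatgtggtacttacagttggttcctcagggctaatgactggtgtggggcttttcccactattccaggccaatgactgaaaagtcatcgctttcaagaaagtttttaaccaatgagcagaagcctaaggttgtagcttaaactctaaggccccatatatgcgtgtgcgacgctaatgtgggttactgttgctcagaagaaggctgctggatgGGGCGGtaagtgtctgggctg
Kcnj1: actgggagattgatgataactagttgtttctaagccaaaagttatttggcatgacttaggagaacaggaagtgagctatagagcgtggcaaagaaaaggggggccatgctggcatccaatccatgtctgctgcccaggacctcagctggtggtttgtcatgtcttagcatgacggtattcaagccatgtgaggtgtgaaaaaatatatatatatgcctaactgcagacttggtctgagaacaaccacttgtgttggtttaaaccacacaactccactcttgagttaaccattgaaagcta
Ptger3: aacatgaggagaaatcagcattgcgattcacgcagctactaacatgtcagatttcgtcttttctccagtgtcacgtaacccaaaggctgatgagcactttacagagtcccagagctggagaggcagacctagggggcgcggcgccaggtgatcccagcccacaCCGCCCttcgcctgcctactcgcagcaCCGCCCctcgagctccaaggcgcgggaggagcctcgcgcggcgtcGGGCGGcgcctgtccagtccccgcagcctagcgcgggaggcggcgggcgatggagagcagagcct

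The Ptger3 window held 27 CpG dinucleotides at 64% G and C, more CpG than 84.5% of 32817 windows of this length. The Slc12a1 window held 5, the Casr window 4, the Kcnj1 window 2 and the Umod window 0, against a median of 7 over all windows. The motifs were TATAAA (the TATA box), GTTAAT (part of the HNF1 site), AAGGTCA (estrogen-related receptors), TGTTTAC (forkhead factors), CACGTG (the E-box), GGGCGG (the GC box) and TGANTCA (AP-1). None of the 7 occurred in more than 2 of the 5 windows. The GC box was present in the Ptger3 window (3 matches, 2 of them on the opposite strand) and in the Slc12a1 window, and in 35.6% of all windows. TGTTTAC occurred in the Slc12a1 window, and in 3.65% of all windows. GTTAAT occurred in the Umod window, 202 bases before the start, and in 7.1% of all windows. The Kcnj1 and Casr windows held none of the 7. The Kcnj1 window, from 32393735, lies inside the gene as counted, which starts at 32372493. Bases around that upstream start were not searched. A match of letters shows neither binding nor its absence.

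**Figure D1:**
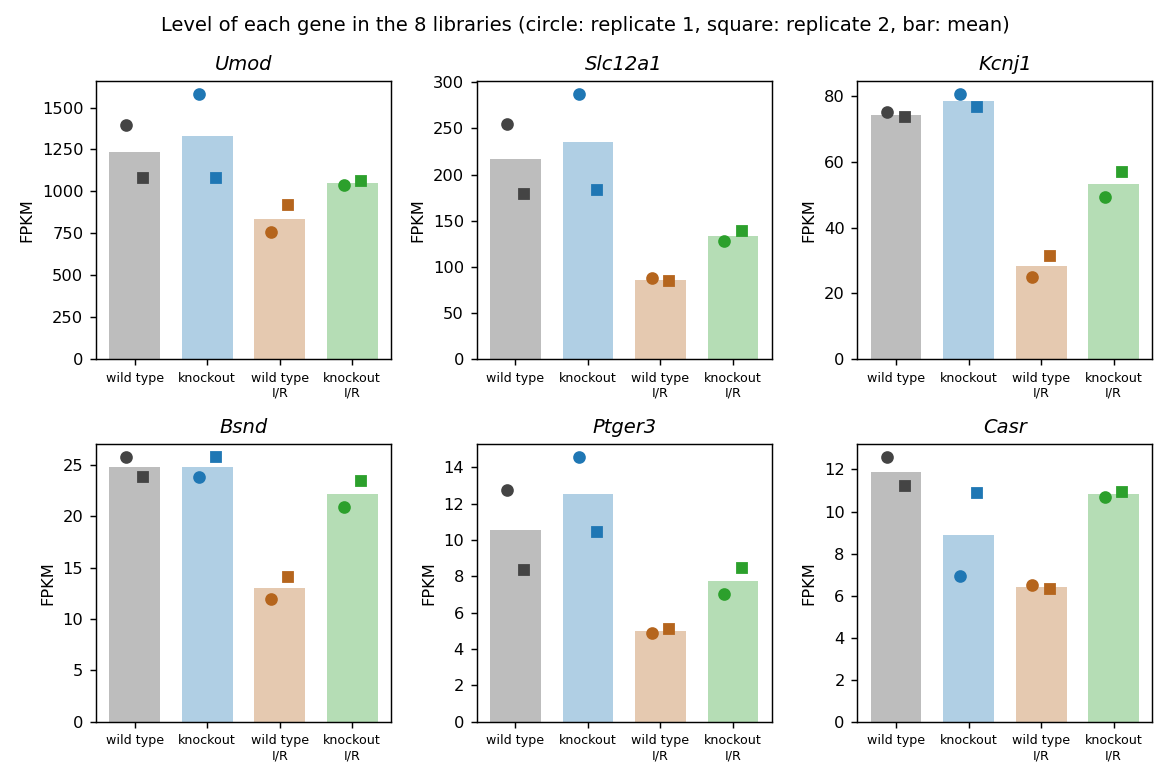
Level in FPKM of each of the 6 genes (1 panel each) in the 8 libraries, with circles for replicate 1, squares for replicate 2 and bars for the mean of the 2 libraries of a group. In wild type after I/R both libraries lie below both libraries without I/R for all 6 genes, as is so for 38.5% of tested genes. The 2 knockout I/R libraries lie above the 2 wild-type I/R libraries in each panel, as is so for 29.7% of tested genes.

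The first comparison asked what I/R had changed in wild type. On the log2(FPKM + 1) scale, limma over 13304 genes, with a call where the Benjamini-Hochberg adjusted p was below 0.05, found that 5 of the 6 genes fell and 0 rose. Umod did not pass. Over all tested genes 20.1% were called lower, 17.4% higher and 37.5% in either direction. The median log2 difference was -0.90 over the 6 genes and -0.03 over all tested genes. In FPKM the libraries with and without I/R did not overlap for any of the 6 genes, with the I/R libraries lower. The same was so for 38.5% of all tested genes. For Umod this rested on the deposited scale. As a share of reads in genes, wild-type I/R replicate 2 (49247 of 18497835) lay above wild-type replicate 2 (48159 of 18307096). After I/R the mean level was between 37.9% (Kcnj1) and 67.8% (Umod) of that in uninjured wild type. In bulk kidney RNA, fewer cells of a type and less RNA per cell cannot be told apart.

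Slc12a1 (ENSMUSG00000027202, chromosome 2 from 125152505 to 125230002, plus strand, coordinates of GRCm38) stood at 254.7 and 178.8 FPKM in the wild-type libraries and at 87.4 and 84.8 FPKM after I/R. In knockout it stood at 287.1 and 182.8 FPKM, and at 128.3 and 138.6 FPKM after I/R. Replicate 1 was the higher library in both uninjured groups, and both I/R groups lay below both uninjured groups. The log2 difference with I/R was -1.30 ± 0.23 (SE) in wild type (limma, adjusted p = 0.00504). In knockout it was -0.78 ± 0.23, which did not pass (limma, adjusted p = 0.0571), though it did with limma-voom on recovered reads (adjusted p = 0.0270). An antisense gene, Gm14002, overlaps Slc12a1 and had at most 11 reads in a library.

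Kcnj1 (ENSMUSG00000041248, chromosome 9 from 32372493 to 32399197, plus strand) stood at 75.1 and 73.7 FPKM in wild type and at 24.95 and 31.4 FPKM after I/R. In knockout it stood at 80.6 and 76.7 FPKM, and at 49.3 and 57.0 FPKM after I/R. The 4 uninjured libraries lay close together and above the 4 injured ones, and the injured knockout libraries above the injured wild-type ones. The decrease in wild type, -1.38 ± 0.12 (limma, adjusted p = 3.06e-04), had a 95% interval from -1.66 to -1.09, which lies inside that of Slc12a1 (-1.85 to -0.75). Only 1.41% of tested genes had a more negative difference. In knockout Kcnj1 fell by -0.56 ± 0.12 (limma, adjusted p = 0.0211), a smaller estimate than that of Slc12a1.

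Bsnd (ENSMUSG00000025418, chromosome 4 from 106483456 to 106492283, minus strand), the gene of the chloride channel subunit, stood at 25.8 and 23.9 FPKM in wild type and at 12.003 and 14.1 FPKM after I/R. In knockout it stood at 23.9 and 25.8 FPKM, and at 20.9 and 23.4 FPKM after I/R. In FPKM the injured knockout libraries lay just under the uninjured ones, and the injured wild-type libraries well under all others. The order within knockout rested on the deposited scale. As a share of reads in genes, knockout I/R replicate 2 (1150 of 17707776) lay above both uninjured knockout libraries. The log2 difference with I/R was -0.88 ± 0.10 in wild type (limma, adjusted p = 8.46e-04). In knockout it was -0.16 ± 0.10 (limma, adjusted p = 0.306), with a 95% interval from -0.40 to 0.08.

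Casr (ENSMUSG00000051980, chromosome 16 from 36493696 to 36562141, minus strand), the gene of the receptor by which the segment senses calcium, stood at 12.6 and 11.2 FPKM in wild type and at 6.49 and 6.30 FPKM after I/R. In knockout it stood at 6.94 and 10.9 FPKM, and at 10.7 and 10.9 FPKM after I/R. Knockout replicate 1 was the exception among the uninjured libraries, near the level of the injured wild type and below the other 3 knockout libraries. Casr fell in wild type by -0.80 ± 0.17 (limma, adjusted p = 0.0112). In knockout its difference was 0.28 ± 0.17 (limma, adjusted p = 0.285), and knockout replicate 1 decided this value: it was -0.01 without that library and 0.57 without knockout replicate 2, when it passed (limma, adjusted p = 0.0126).

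Ptger3 (ENSMUSG00000040016, chromosome 3 from 157566892 to 157645888, plus strand), the gene of the EP3 receptor, stood at 12.7 and 8.37 FPKM in wild type and at 4.91 and 5.12 FPKM after I/R. In knockout it stood at 14.6 and 10.4 FPKM, and at 7.04 and 8.48 FPKM after I/R. As with Slc12a1, replicate 1 was the higher library of each uninjured group. Ptger3 fell in wild type by -0.92 ± 0.21 (limma, adjusted p = 0.0142), and its difference in knockout was -0.61 ± 0.21 (limma, adjusted p = 0.0843).

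Umod (ENSMUSG00000030963, chromosome 7 from 119462711 to 119479282, minus strand) had by far the highest level of the 6. It stood at 1394 and 1078 FPKM in wild type and at 758 and 918 FPKM after I/R. In knockout it stood at 1579 and 1080.4 FPKM, and at 1039 and 1061 FPKM after I/R. Replicate 1 was again the higher uninjured library of each genotype, and knockout replicate 2 lay just above both injured knockout libraries. The difference with I/R was -0.55 ± 0.21 in wild type (limma, adjusted p = 0.0772) and -0.31 ± 0.21 in knockout (limma, adjusted p = 0.324), and neither passed. In wild type Umod did pass without knockout replicate 1 or 2, libraries that enter that fit through the shared spread (limma, adjusted p = 0.0322 in either), and with limma-voom on recovered reads (adjusted p = 0.0443).

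The calls for Ptger3 and Casr in wild type rested on every library of that genotype but wild-type replicate 2. Without wild-type replicate 1 the adjusted p was 0.0591 for Ptger3 and 0.0583 for Casr, without wild-type I/R replicate 1 it was 0.0686 and 0.0503, and without wild-type I/R replicate 2 it was 0.0577 and 0.0564. Scale also bears on the size of the decreases, because the deposited FPKM sum to less after I/R. With every library set to an equal sum, the median of all tested genes shifted by 0.25 for I/R in wild type, 20.3% of called genes were lower against 53.5% as deposited, and Casr no longer passed (adjusted p = 0.0723). Relative to the median gene on that scale the 6 differences in wild type lay between -1.31 (Kcnj1) and -0.48 (Umod).

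The same question in knockout gave 1 call of 6, Kcnj1, where 11.7% of tested genes were called lower, 8.95% higher and 20.7% in either direction. At an unadjusted p under 0.05 there were 3, Kcnj1, Slc12a1 and Ptger3, but the share of all tested genes at that threshold was not taken. The median difference of the 6 genes was -0.44, against -0.03 over all tested genes. In FPKM the I/R libraries lay below the others without overlap for 5 of the 6 genes, as was so for 35.7% of tested genes. Casr was the exception. As a share of reads in genes Umod and Bsnd overlapped too. For Umod, knockout I/R replicate 1 (50678 of 17834333) lay above knockout replicate 2 (48916 of 18229109). For Bsnd, knockout I/R replicate 2 (1150 of 17707776) lay above knockout replicates 1 (951 of 16856820) and 2 (1165 of 18229109). Mean levels after I/R were 56.8% of those in uninjured knockout for Slc12a1, 62.1% for Ptger3, 67.6% for Kcnj1, 79.0% for Umod, 89.2% for Bsnd and 122% for Casr. The Kcnj1 call was lost without knockout replicate 1 (adjusted p = 0.0880) and without the injured knockout replicates 1 (0.117) and 2 (0.0675). It was also lost when low genes were kept (0.0563) and at an equal sum (0.112). Without knockout replicate 2, Slc12a1 and Ptger3 passed too (limma, adjusted p = 0.0165 and 0.0479). At an equal sum 15.5% of called genes were lower against 56.7% as deposited, the median of all tested genes shifted by 0.21, and Bsnd had a difference of 0.09.

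Whether the knockout changed these genes without injury was asked next. In that comparison limma called 0 of the 6, and 0 had an unadjusted p under 0.05. Limma-voom on recovered reads also called 0. Over all tested genes 0.00752% were called. Libraries of the genotypes did not overlap for Kcnj1, higher in knockout as were 21.5% of tested genes, and for Casr, lower in knockout as were 16.5%. The 95% intervals for the difference between knockout and wild type were -0.24 to 0.24 for Bsnd, -0.21 to 0.37 for Kcnj1, -0.45 to 0.65 for Slc12a1, -0.40 to 0.59 for Umod, -0.27 to 0.73 for Ptger3 and -0.82 to 0.00 for Casr. The spread behind these intervals is estimated over all 4 groups. The Casr estimate of -0.41 rested on knockout replicate 1 and was -0.12 without it.

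**Figure D2:**
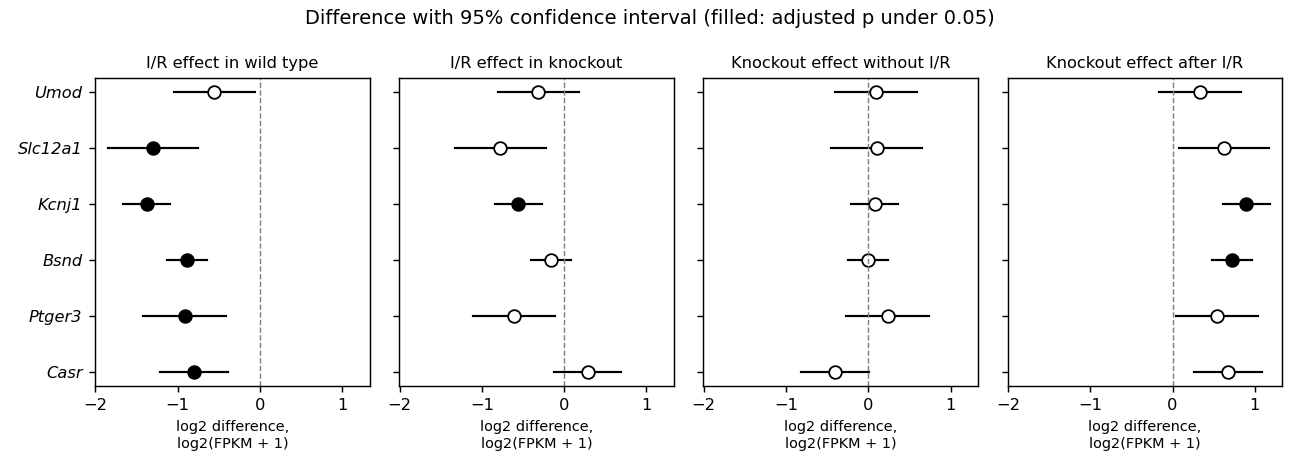
Log2 difference on the log2(FPKM + 1) scale (horizontal axis) of each gene in 4 comparisons (1 panel each), with 95% confidence intervals and filled points for calls. All 6 points lie left of 0 for I/R in wild type and right of 0 for the genotypes compared after I/R.

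After I/R, Kcnj1 and Bsnd were higher in knockout than in wild type, 2 of the 6 genes, where 2.79% of all tested genes were called higher, 3.22% lower and 6.01% in either direction. The knockout level was 189% of the wild-type level for Kcnj1 and 170% for Bsnd. The log2 difference was 0.90 ± 0.12 for Kcnj1 (limma, adjusted p = 0.0164) and 0.72 ± 0.10 for Bsnd (limma, adjusted p = 0.0175). The other 4 did not pass: Casr had a difference of 0.68 ± 0.17 (limma, adjusted p = 0.0698), Slc12a1 of 0.63 ± 0.23 (0.160), Ptger3 of 0.54 ± 0.21 (0.179) and Umod of 0.33 ± 0.21 (0.393). At an unadjusted p under 0.05 there were 5, Umod being the exception, again without a share of all tested genes to set beside it. For all 6 genes both knockout libraries lay above both wild-type libraries, as was so for 29.7% of tested genes. The median was 0.65 over the 6 genes and 0.01 over all tested genes.

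These 2 calls did not hold in every fit with a library left out. Without wild-type I/R replicate 1 the adjusted p was 0.0579 for Kcnj1 and 0.0744 for Bsnd. Without wild-type I/R replicate 2, Bsnd stood at 0.0611 and Kcnj1 still passed. Without knockout I/R replicate 1 or 2 it was 0.107 and 0.10 for Kcnj1 and 0.113 and 0.106 for Bsnd. Casr passed without knockout replicate 1 or 2 (0.0138 and 0.0139). In the 4 fits without an injured library the calls over all genes fell from 800 to between 8 and 72. At an equal sum both calls held, while 80.1% of called genes were lower in knockout against 53.6% as deposited.

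Whether the response to I/R itself differed between genotypes was tested as the interaction. Limma called 0 of the 6, where 0.286% of all tested genes were called in either direction. At an unadjusted p under 0.05 there were 3, a count with no share of all tested genes beside it. Limma-voom on recovered reads called 2, Kcnj1 and Bsnd. The interaction was 1.08 ± 0.25 for Casr (limma, adjusted p = 0.109), 0.82 ± 0.17 for Kcnj1 (0.0950) and 0.72 ± 0.14 for Bsnd (0.0927). It was 0.52 ± 0.33 for Slc12a1 (0.463), 0.30 ± 0.30 for Ptger3 (0.651) and 0.24 ± 0.29 for Umod (0.724). The decrease of these genes was thus not shown by limma to be smaller in knockout. The Casr interaction was 0.79 without knockout replicate 1 and 1.37 without knockout replicate 2, when it passed (limma, adjusted p = 0.0258).

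Ratios of 2 genes within a library do not depend on its scale, and 4 of the 15 ratios are given here without a test. Groups did not overlap in 10 of the 15 for I/R in wild type and in 10 for I/R in knockout. For the genotypes the number was 10 after I/R and 4 without I/R. The Umod to Slc12a1 ratio of FPKM in uninjured libraries was 5.47 and 6.03 (wild type) and 5.50 and 5.91 (knockout). After I/R it was 8.67 and 10.8 in wild type, against 8.10 and 7.66 in knockout. The 4 injured libraries lay above the 4 uninjured ones, and the injured wild type above the injured knockout. The Slc12a1 to Kcnj1 ratio behaved otherwise, at 3.39 and 2.43 in wild type and 3.50 and 2.70 after I/R, and at 3.56 and 2.38 in knockout and 2.60 and 2.43 after I/R. Its replicates differed as much as its groups.

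The Slc12a1 to Bsnd ratio was 9.88 and 7.49 in wild type, 12.02 and 7.08 in knockout, 7.29 and 6.02 in wild type after I/R and 6.14 and 5.92 in knockout after I/R. Injured libraries were lower within each genotype. The Umod to Casr ratio was 227.6 in knockout replicate 1 and between 96.3 and 145.7 in the other 7 libraries, so that library stood apart in Casr relative to Umod also within its own counts. The order of the levels was Umod, Slc12a1, Kcnj1 and Bsnd in all 8 libraries. Casr and Ptger3 followed, with Ptger3 above Casr in wild-type replicate 1 and knockout replicate 1 only. Their ranges overlapped in both uninjured groups, whereas in both injured groups the 2 Casr values lay above the 2 Ptger3 values.

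**Figure D3:**
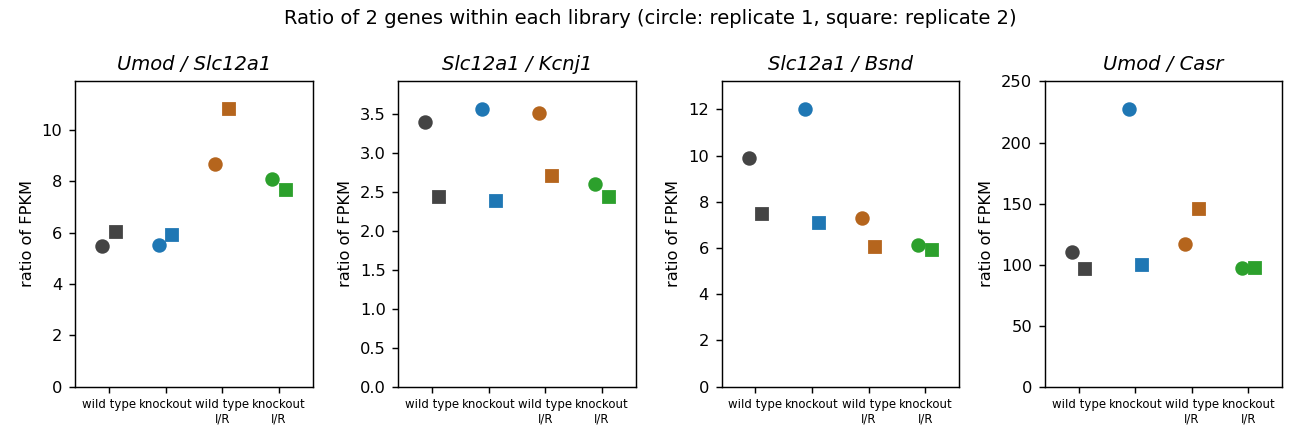
Ratio of the FPKM of 2 genes within each library (vertical axis, no unit) for 4 pairs of genes (1 panel each) in the 4 groups, with circles for replicate 1 and squares for replicate 2. The Umod to Slc12a1 ratio is highest in the 2 injured wild-type libraries, and knockout replicate 1 stands apart in the Umod to Casr ratio at 227.6.

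Other genes of the segment were taken from 7 lists by role. Of 73 genes 62 were tested. In wild type 32 fell and 8 rose with I/R, in knockout 18 fell and 6 rose, and after I/R 12 were higher and 3 lower in knockout than in wild type. Over all tested genes 20.1% fell and 17.4% rose in wild type, and 11.7% fell and 8.95% rose in knockout. After I/R 2.79% were higher and 3.22% lower in knockout. These shares also stand beside the counts for each list and for the cell markers below. The median differences of the 62 genes were -0.36, -0.18 and 0.20, against -0.03, -0.03 and 0.01 over all tested genes. Between the uninjured genotypes their median difference was 0.03, and the 1 gene called in that comparison was not among them.

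Among partners of chloride exit, potassium channels and the sodium pump, 6 of 7 tested genes fell in wild type with I/R, 3 fell in knockout, and 3 were higher in knockout after I/R. Kcnj10, a basolateral potassium channel gene, fell in wild type by -0.93 and was higher in knockout after I/R by 0.81. Of the sodium pump genes, Fxyd2 fell by -0.72 in wild type and -0.51 in knockout, and Atp1b1 by -0.61 and -0.40.

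Of 11 genes that regulate the cotransporter, 5 fell and 1 rose in wild type, 3 fell and 1 rose in knockout, and 3 were higher in knockout after I/R. Klhl3, which encodes an adaptor for the degradation of WNK kinases, fell from 15.7 ± 0.621 to 4.34 ± 0.0542 FPKM in wild type and was 11.3 ± 0.804 FPKM in knockout after I/R. Wnk1, a kinase gene upstream of the cotransporter, fell by -1.13 in wild type and was higher in knockout after I/R by 0.98, and Wnk4 by -0.92 and 0.57. Maged2, needed for cotransporter expression in the fetal human kidney, rose by 0.99 in wild type and 0.55 in knockout. The kinase genes Stk39 and Oxsr1, which act directly on the cotransporter, had differences of -0.16 and 0.05 in wild type and passed in no comparison. Cab39l, which encodes a scaffold of those kinases, fell by -0.45 in wild type and -0.42 in knockout. Klhl3, Wnk1 and Wnk4 are also expressed in the distal convoluted tubule.

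Claudins set the paracellular route for sodium, calcium and magnesium. Cldn16, of the magnesium pathway, stood at 9.30 ± 0.190 FPKM in wild type and 9.43 ± 0.134 after I/R and did not pass there (0.02 ± 0.06, limma, adjusted p = 0.848). In knockout Cldn16 fell by -0.27, from 11.0 ± 0.316 FPKM, the highest mean of the 4 groups, to 8.99 ± 0.0587 FPKM. Cldn19, its partner, rose by 0.60 in wild type, and Cldn10, of the sodium pathway, fell by -0.42. Cldn4 and Cldn3, which are not specific to the segment, rose by 2.59 and 1.78 in wild type, and both were lower in knockout after I/R, by -1.25 and -1.10. Cldn4 rose in knockout by 1.08. Of 5 tested claudins 3 rose and 1 fell in wild type, and 1 rose and 1 fell in knockout.

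Among hormone receptors and cyclic AMP genes 3 of 6 fell and 1 rose in wild type, with 2 and 1 in knockout. The glucagon receptor gene Gcgr fell by -0.90 and -0.73, the parathyroid hormone receptor gene Pth1r by -0.49 and -0.28, and the G protein gene Gnai2 rose by 0.80 and 0.39. Pth1r was higher in knockout after I/R by 0.35. Of 6 tested prostaglandin E2 genes, 2 rose and 1 fell in wild type and 3 rose and 1 fell in knockout. Slco2a1, the prostaglandin uptake transporter gene, rose by 1.197 and 0.54, and was lower in knockout after I/R by -0.54. The synthase genes Ptges and Ptges2 had differences of 0.33 and -0.34 with I/R in wild type, against 0.36 and -0.44 in knockout, all calls. Ptger3 was the only E2 receptor gene tested, since Ptger1, Ptger2 and Ptger4 had means of 0.413, 0.0442 and 0.903 FPKM over the 8 libraries, under the minimum of 1.

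In the list of other genes of the segment 11 of 16 fell in wild type, 6 fell in knockout, and 3 were higher in knockout after I/R. Egf, the epidermal growth factor gene, fell by -2.92 in wild type and -0.99996 in knockout and was higher in knockout after I/R by 1.92, and its interaction passed (limma, adjusted p = 0.0261). Tmem52b, a transmembrane protein gene, fell in wild type by -1.197 and was higher in knockout after I/R by 1.17. Ppp1r1b, a protein phosphatase inhibitor gene, fell by -2.09 and -1.40. Tmem207 fell by -1.33 in wild type, and Dusp15, a phosphatase gene, by -1.12 in wild type and -0.64 in knockout. Slc9a3, the gene of the apical sodium-proton exchanger, was higher in knockout after I/R by 0.46. Of 11 nephron transcription factor genes 5 fell and 1 rose in wild type and 2 fell in knockout. Esrrb, an estrogen-related receptor gene, fell from 8.22 ± 1.94 to 2.82 ± 0.0784 FPKM in wild type and from 7.76 ± 2.11 to 3.75 ± 0.114 in knockout. Esrra fell by -0.64 and -0.43, and Hnf4a, a proximal tubule factor gene, by -0.61 in wild type. After I/R, Tfap2b and Ppargc1a were higher in knockout by 0.37 and 0.34.

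**Figure D4:**
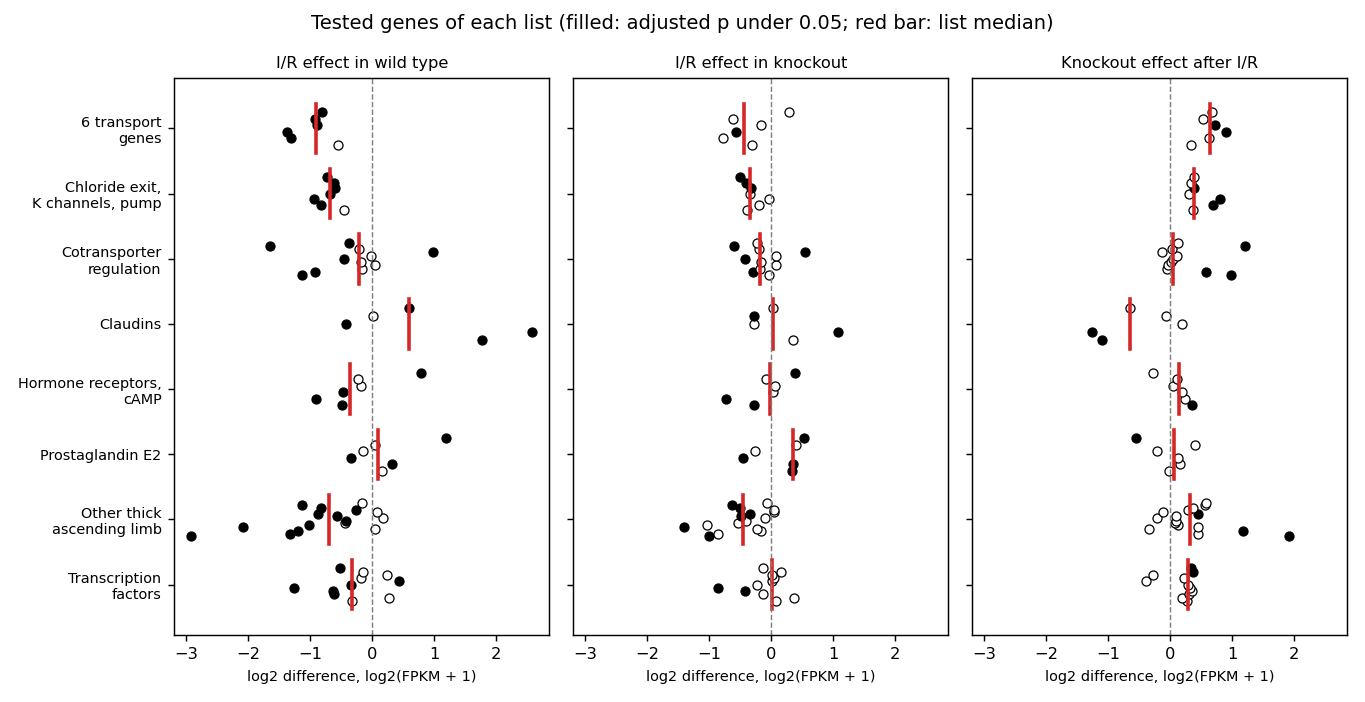
Log2 difference on the log2(FPKM + 1) scale (horizontal axis) of every tested gene of the 6 transport genes and the 7 role lists in 3 comparisons (1 panel each), filled where called, with a red bar at the list median. The chloride exit list lies left of 0 for I/R in either genotype, and the claudins include Cldn4 at 2.59 in wild type and -1.25 for the genotypes compared after I/R.

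The genes closest in pattern to each of the 6 were found by the root mean square difference, over the 8 libraries, of log2(FPKM + 1) centred on each gene's mean, among 11447 protein-coding genes. For Slc12a1 these were Isoc2b (0.11), Tmem207 (0.13) and Esrrb (0.14). Tmem207 is a transmembrane protein gene of the segment, and Esrrb is the receptor gene named above. For Kcnj1 they were Atp6v1c2, a proton pump subunit gene of intercalated cells (0.08), Macrod2 (0.12) and Cwh43 (0.13). For Bsnd they were Osbp2 (0.06), Scnn1a, a subunit gene of the epithelial sodium channel (0.07), and Slc25a35 (0.07). For Umod they were Mme, the neprilysin gene (0.08), Cfap126 (0.10) and Pdk3 (0.11), for Ptger3 Htatip2, Nrtn and Fbxo36 (0.13, 0.13 and 0.14), and for Casr Pdpr, Dlec1 and Kdr (0.13, 0.14 and 0.14). Within the 6, Slc12a1 and Ptger3 were nearest to each other, at 0.16. Such likeness covers 8 libraries in 4 groups and describes them only.

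Other tubule segments moved in the same comparisons. The summed level of 7 distal convoluted and connecting tubule markers ranged from 3145 to 3288 FPKM in wild type and 3934 to 4023 in knockout. After I/R it ranged from 961 to 1139 in wild type and 2898 to 3016 in knockout. Klk1 and S100g made up most of it, with means of 1790 and 1072 FPKM in wild type. All 7 markers fell in wild type and were higher in knockout after I/R. For 8 proximal tubule markers the sum was 3183 to 3377, 3120 to 3447, 1567 to 1638 and 2376 to 2507 FPKM in the same order, with 7 falling in wild type and 2 higher in knockout after I/R. For 7 intercalated cell markers it was 143 to 154, 122 to 143, 74.4 to 75.6 and 113 to 119.7 FPKM, with 5 and 3. For 7 principal cell markers it was 358 to 379.5, 357 to 483, 261 to 281 and 290.3 to 300.3 FPKM, and 2 fell in wild type.

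Markers of injury, macrophages and fibroblasts rose with I/R, 8 of 8, 5 of 6 and 6 of 6 in either genotype. After I/R 7 of the 8 injury markers were lower in knockout than in wild type. Of the 6 macrophage and 6 fibroblast markers 0 were called between the genotypes after I/R, with median differences of -0.34 and -0.51. The sum of 6 macrophage markers was 63.5 to 106 FPKM in wild type, 70.6 to 78.9 in knockout, 314 to 355 in wild type after I/R and 239 to 256 in knockout after I/R. For 6 fibroblast markers it was 24.8 to 36.6, 30.3 to 34.0, 234 to 319 and 169 to 198 FPKM. For 8 tubular injury markers it was 450.0 to 521, 701 to 704, 7845 to 7989 and 4737 to 5068 FPKM. Most of that sum was Spp1, with means of 374, 559, 6710 and 4391 FPKM in the same order. After I/R, Lcn2, the gene of the injury marker NGAL, was 105 ± 27.3 FPKM in wild-type and 24.7 ± 4.66 FPKM in knockout kidneys. Of 4 tested thin limb markers 1 rose and 1 fell in wild type. Of 5 endothelial markers 1 rose and 2 fell in wild type. The sum of 5 podocyte markers was 54.6 to 59.9, 45.1 to 75.0, 41.3 to 46.9 and 67.9 to 69.4 FPKM in the 4 groups. Only the thin limb list held a marker at 0 in any library. The part of these marker shifts in the results for the 6 genes was not tested.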

How the data were processed

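RNA of mouse kidney was sequenced in 8 libraries, per the labels' protocols after poly-T purification of mRNA and random priming, and they describe no strand-marking step. The authors deposited FPKM per gene and library in a single table with gene coordinates and lengths. The authors used featureCounts 1.5.0-p3 and DESeq2 1.20.0 and named build GRCm39, per the submitters' processing notes. No source used here gives the aligner, strand setting or FPKM formula. Of 54495 identifiers matched to a GRCm38 annotation (GENCODE M21), 53585 had identical starts and ends, all 6 genes among them, so positions are those of GRCm38. FPKM times gene length gave whole reads for 100% of values above 0 (tolerance 0.05 reads), which gave the reads per library. The library size that the FPKM imply was 0.857 to 0.905 times the reads in genes without I/R. After I/R it was 0.990 to 1.07 times, which lowers the FPKM of injured libraries relative to their reads. Replicates differed by more than sampling noise (mean chi-square of 4.41 to 17.8 per gene), so none were merged.

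The 13304 genes whose mean reached 1 FPKM were fitted on log2(FPKM + 1) with limma 3.58.1 (R 4.3.3), using 4 group means, 4 residual degrees of freedom and a trended prior of 2.90. Folds on this scale understate changes of low genes. P-values were two-sided and adjusted over all tested genes. This fit was checked on simulated data. The 6 genes and the 18 lists (144 entries, all found by symbol) were chosen with earlier results of these data known. Besides the 6, Kdm6a, Havcr1 and Lcn2, each role list gave up to 3 called genes with the largest difference per comparison, and for each of the 6 the 3 closest patterns. Stk39, Oxsr1, Cldn10 and the other E2 receptor genes lie outside that rule and were named after their values were seen. Some genes that the rule gives are not reported here. Alternatives were a pseudocount of 0.1, no filter, an equal FPKM sum, limma-voom on recovered reads, only the groups compared, no trend, a replicate block and each library left out.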

Additional observations from a re-analysis of the deposited data

How the results depend on the processing

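Across the alternatives, 399 of 444 values for single genes among the 6 kept their direction and side of the threshold, 19 lost a call, 16 gained one and 10 changed sign, none of them a call in the main analysis. The calls of Slc12a1, Kcnj1 and Bsnd in wild type after I/R held under all 15 alternatives. The replicate numbers of the labels are shared between groups. Of 6 correlations of replicate deviations between groups (-0.08 to 0.16) only 1 was over 0.1. That was uninjured wild type with uninjured knockout (0.16), the groups where Umod, Slc12a1 and Ptger3 were higher in replicate 1. The numbers were not taken to pair the libraries in the main fit, and a shared replicate pattern in those 2 groups was not tested. With the replicate block, I/R in knockout called 2 of the 6 genes, Kcnj1 (limma, adjusted p = 0.0264) and Slc12a1 (0.0445), and 2412 of 13304 over all genes. Calls over all genes with the block were 461 for the genotypes compared after I/R and 9 for the interaction.

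For I/R in knockout, the calls among the 6 were 0 with no filter, 0 at an equal FPKM sum and 2, again Kcnj1 and Slc12a1, with limma-voom. For the genotypes compared after I/R they were 4 with only the groups compared, and for the interaction 2 with limma-voom. Over all genes, I/R in knockout gave 1790 calls of 30208 with no filter and 3291 of 13380 at an equal sum. It gave 3082 of 13304 with limma-voom and 1556 of 13304 with only the groups compared. The genotypes compared after I/R gave 827 of 13304 with only the groups compared, 305 of 30208 with no filter and 1535 of 13304 with limma-voom. For the interaction the calls over all genes were 14 with a pseudocount of 0.1, 61 at an equal sum and 180 of 13304 with limma-voom. Without I/R they were 2 with a pseudocount of 0.1, 10 with no filter, 0 with limma-voom and 0 with only the groups compared, against 1. The cause was not tested.

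With each library left out, the 6 genes gave 3 to 6 calls for I/R in wild type, 0 to 4 for I/R in knockout, 0 to 3 for the genotypes compared after I/R, 0 to 1 for the interaction and 0 without I/R. Over all genes the counts were 3215 to 5482, 577 to 3329, 8 to 1269, 0 to 210 and 1 to 6 in that order. For I/R in knockout, Bsnd was 0.088 at an equal sum, and Casr ranged from -0.0055 (without knockout replicate 1) to 0.57 with a library left out. Between the uninjured genotypes the ranges were -0.18 to 0.37 for Umod, -0.22 to 0.43 for Slc12a1, -0.054 to 0.053 for Bsnd and -0.042 to 0.51 for Ptger3, with signs changed only without a wild-type or knockout uninjured library. The Umod interaction ranged from -0.033 to 0.51. Fits with a library left out assume that the lone library of a group varies like the other groups. With at least 473 reads per library for each of the 6 genes, 2 libraries a group limit precision more than counting does.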
